A study of Rattus norvegicus with 9 samples.

Results

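The genes described here carry out or control fatty acid oxidation and ketone body formation in the liver, or are known targets of PPARA, the nuclear receptor that drives that programme. They were taken by symbol from a table of raw counts, and all 29 listed symbols were among its 23479 rows, where symbols stand in capitals (CPT1A, ETFDH, ACOT4, PDK4). Rat spelling is used below. Livers of male Wistar rats, which are outbred, were collected from 4 animals of 24 months (old 1 to 4) and 5 animals of 6 months (young 1 to 5). The labels give strain, sex, age and tissue for each animal, and no treatment or genotype. Poly(A) RNA of each liver was sequenced as a separate library, and the question was how these transcripts differ with age.

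Fatty acids enter mitochondria as carnitine esters and are shortened there by a repeated cycle of dehydrogenation, hydration, a second dehydrogenation and thiolysis. Very long chains are first shortened in peroxisomes, and the liver turns much of the acetyl-CoA into ketone bodies during fasting. PPARA binds DNA with a retinoid X receptor and, when activated by fatty acids, raises the transcripts of many of these enzymes in rodents. Some targets, among them Pdk4, Fgf21 and Angptl4, are known to move widely with nutrition, while most enzymes of the cycle move less.

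Total counts ran from 18586798 to 32882704 in the old libraries and from 18942191 to 25215805 in the young ones. The highest total was that of old 1, whose counts were all even, with 0 odd values. Its total may therefore not be comparable with those of the other libraries. All 10 hepatocyte markers had counts in the table, and summed to between 220272 and 336260 CPM in old livers, against 186374 to 208569 CPM in young livers. Without Alb, the albumin gene, the sums of the other 9 overlapped, at 87785 to 115480 CPM in old and 80138 to 97829 CPM in young livers. CPM gives a gene's counts relative to the library's total after the libraries were scaled to one another, without regard to gene length. Heart muscle transcripts, summed over 29 markers, lay at 7.90 to 10.5 CPM in old livers. The sum was 18.9 CPM in young 1 and ranged from 127 to 158 CPM over the other 4 young livers. Of the 18.9 CPM in young 1, Ryr2 gave 7.05 CPM, Actn2 5.71 CPM and Myom1 2.90 CPM. Myh6, Myh7, Myl2, Actc1, Ckm and Ckmt2 had 0 counts in young 1, as in every old liver. Markers of monocytes and neutrophils, summed over 7 genes, reached 242 CPM in old 3 and stayed between 15.01 and 19.6 CPM in the remaining old libraries, against 9.02 to 18.6 CPM in young livers. Erythroid transcripts summed to between 589 and 2467 CPM in old livers and between 78.2 and 443 CPM in young livers. In whole tissue, fewer cells of a type and less RNA per cell cannot be told apart.

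Of the 29 members, 28 had enough counts to test, and 0 were called higher or lower in old livers by edgeR's quasi-likelihood test with Benjamini-Hochberg adjustment at 0.05. Over all 12778 genes tested, 0.657% were called higher and 0.344% lower. At an unadjusted p under 0.05 the members counted 7, with 5 higher in old livers (Decr1, Acot2, Acot4, Pdk4 and Fgf21) and 2 lower (Cpt1a and Etfdh). That is 25.0% of those tested, against 15.9% of all genes, of which 8.94% were higher and 6.96% lower. With library totals as the only scaling the members split into 1 higher and 6 lower, and all genes moved the same way, to 3.81% higher and 20.9% lower. Without old 3 and old 4, which left only old 1 and old 2 in the old group, the members split into 5 higher and 0 lower. In that fit 11.5% of all genes were higher and 9.17% lower. DESeq2 called 1 of them higher (Acot4) and 1 lower (Cpt1a), while it called 3.03% of all genes higher and 2.11% lower. By limma-voom 0 members were called, against 0.321% of all genes higher and 0.211% lower. The groups did not overlap for 2 members, Decr1 and Etfdh, which is 7.14% of those tested, against 6.53% of all genes, of which 3.4% were higher and 3.12% lower.

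The median log2 fold change, old over young, was -0.01 over the 28 tested members and 0.01 over all genes tested. It was -0.03 for the 15 genes of mitochondrial oxidation and carnitine transport, -0.03 for the 4 peroxisomal genes and 0.50 for the 6 tested inducible targets. Over 26 other tested genes listed as inducible targets it was 0.10, with 14 above and 12 below 0. Bdh1, the ketogenesis gene of the list, had -0.28. The inducible targets held 4 of the 5 members with higher values at an unadjusted p under 0.05, and 2 of the 6, Vnn1 and Angptl4, had negative values. These roles were set with earlier results of these data known, and PPARA also raises many enzymes counted under the other roles. Ehhadh, which PPARA agonists induce in rodents, was counted as peroxisomal and had 0.00018. Acaa1b, also counted as peroxisomal, had -0.05, and Cpt1a, counted as mitochondrial, had -1.13. The medians therefore depend on the split and do not describe PPARA targets as a class. The approximate 95% interval of the fold change lay within 1.5-fold either way for 14 of the 28 members, of which 11 belong to mitochondrial and 3 to peroxisomal oxidation.

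**Figure D1:**
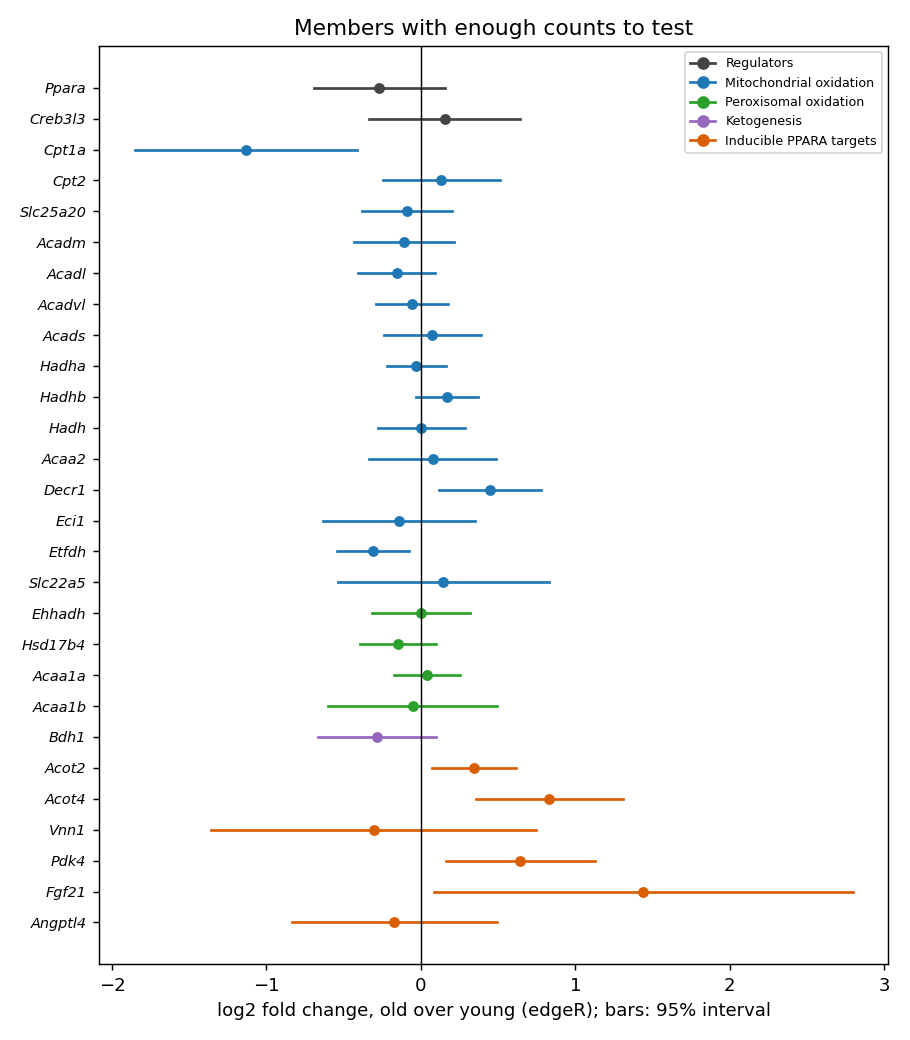
Log2 fold change, old over young, of the 28 tested members from edgeR, with approximate 95% intervals as bars and colours by role. The intervals of 21 members hold 0, and those that do not belong to Cpt1a, Decr1, Etfdh, Acot2, Acot4, Pdk4 and Fgf21.

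Ppara encodes the receptor itself. Its level was 85.0, 97.2, 133 and 76.5 CPM in old 1 to 4, and 94.5, 142, 95.6, 114 and 144 CPM in young 1 to 5. The groups overlapped, with old 1 and old 4 under all young livers. The log2 fold change was -0.27 ± 0.19 (SE, edgeR adjusted p = 0.515), with an interval of -0.69 to 0.16. It was -0.45 without old 3 and -0.165 without old 4 (edgeR adjusted p = 0.224 and 0.688). Creb3l3 encodes a liver transcription factor that acts with PPARA on Fgf21. Its level was 486 CPM in old 1 and 238 to 290 CPM in the other old livers, against 243 to 359 CPM in young livers (adjusted p = 0.758 by edgeR).

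Cpt1a encodes the carnitine palmitoyltransferase of the outer mitochondrial membrane, the regulated step of fatty acid entry. Its level was 166, 91.0, 111 and 90.9 CPM in old 1 to 4, and 185, 462, 229, 219 and 161 CPM in young 1 to 5. Old 1 reached the lowest young liver, the other 3 old livers lay under all young ones, and young 2 stood far above the rest. The means were 115 ± 35.5 CPM in 4 old and 251 ± 121 CPM in 5 young animals (SD). Old over young, the log2 difference was -1.13 ± 0.32 (SE, interval -1.85 to -0.41), the lowest of the members, and it missed edgeR's threshold with an adjusted p of 0.134. Without young 2 it was -0.79 (adjusted p = 0.186), and DESeq2 on all libraries gave an adjusted p of 0.0118.

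The other genes of carnitine transport had log2 fold changes closer to 0. Cpt2, which returns the acyl group to CoA inside the mitochondrion, lay at 77.3 ± 20.7 CPM in old and 70.6 ± 7.79 CPM in young livers. Slc25a20, the carrier that exchanges acylcarnitine for carnitine, lay at 96.6 ± 19.4 CPM in old and 103 ± 7.41 CPM in young livers. Slc22a5, the carnitine transporter of the cell membrane, lay at 11.8 ± 5.79 CPM in old and 10.7 ± 2.20 CPM in young livers. Their adjusted p by edgeR was 0.731, 0.769 and 0.836, and the log2 intervals ran from -0.25 to 0.51, from -0.38 to 0.20 and from -0.53 to 0.83.

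The acyl-CoA dehydrogenases take the first step of the cycle, each for another chain length. The very long chain enzyme gene Acadvl had a log2 fold change of -0.06 (interval -0.29 to 0.17), the long chain gene Acadl -0.16 (-0.40 to 0.09), the medium chain gene Acadm -0.11 (-0.43 to 0.21) and the short chain gene Acads 0.07 (-0.24 to 0.39). None of these 4 was called by edgeR, with adjusted p-values of 0.814, 0.515, 0.738 and 0.821. Acadm was highest in old 2 at 771 CPM and lay at 481 to 560 CPM in the other old livers, against 574 to 673 CPM in young livers.

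Etfdh encodes the oxidoreductase that passes the electrons of these dehydrogenases to ubiquinone. Its level was 230, 220, 177 and 199 CPM in old 1 to 4, and 240, 246, 258, 255 and 281 CPM in young 1 to 5. Every old liver lay under every young one. The log2 fold change was -0.31 ± 0.11 (SE), an old level of 0.806 of the young one, and the adjusted p by edgeR was 0.195. With library totals as the only scaling it was called lower, with -0.49 and an adjusted p of 0.0413, while the median of all genes moved to -0.17 under that scaling.

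Hadha and Hadhb encode the subunits of the trifunctional protein, which carries out the later steps for long chains. Hadha was the steadiest member, at 273 ± 13.5 CPM in old and 279 ± 10.4 CPM in young livers, with a log2 fold change of -0.03 and an interval of -0.22 to 0.16. Hadhb lay at 175 ± 11.7 CPM in old and 155 ± 10.2 CPM in young livers (log2 0.17, adjusted p = 0.389 by edgeR). Hadh, the dehydrogenase for shorter chains, and Acaa2, the mitochondrial thiolase, had log2 fold changes of 0.0028 and 0.08 (intervals -0.28 to 0.29 and -0.33 to 0.48).

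Unsaturated fatty acids need accessory enzymes, and Decr1 encodes the mitochondrial dienoyl-CoA reductase. Its level was 213, 142, 133 and 159 CPM in old 1 to 4, and 105, 133, 104, 120 and 130 CPM in young 1 to 5. The groups did not overlap, but old 3 and young 2 differed by less than 1 CPM. On the log2 scale the difference was 0.45 ± 0.15 (SE, edgeR adjusted p = 0.183), and without old 1 it was 0.29. Eci1, an enoyl-CoA isomerase gene, reached 119 CPM in old 1, with 54.9 to 65.3 CPM in the other old livers, against 67.3 to 105 CPM in young livers. Its log2 fold change was -0.14 with all libraries and -0.44 without old 1 (adjusted p = 0.776 and 0.213 by edgeR).

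**Figure D2:**
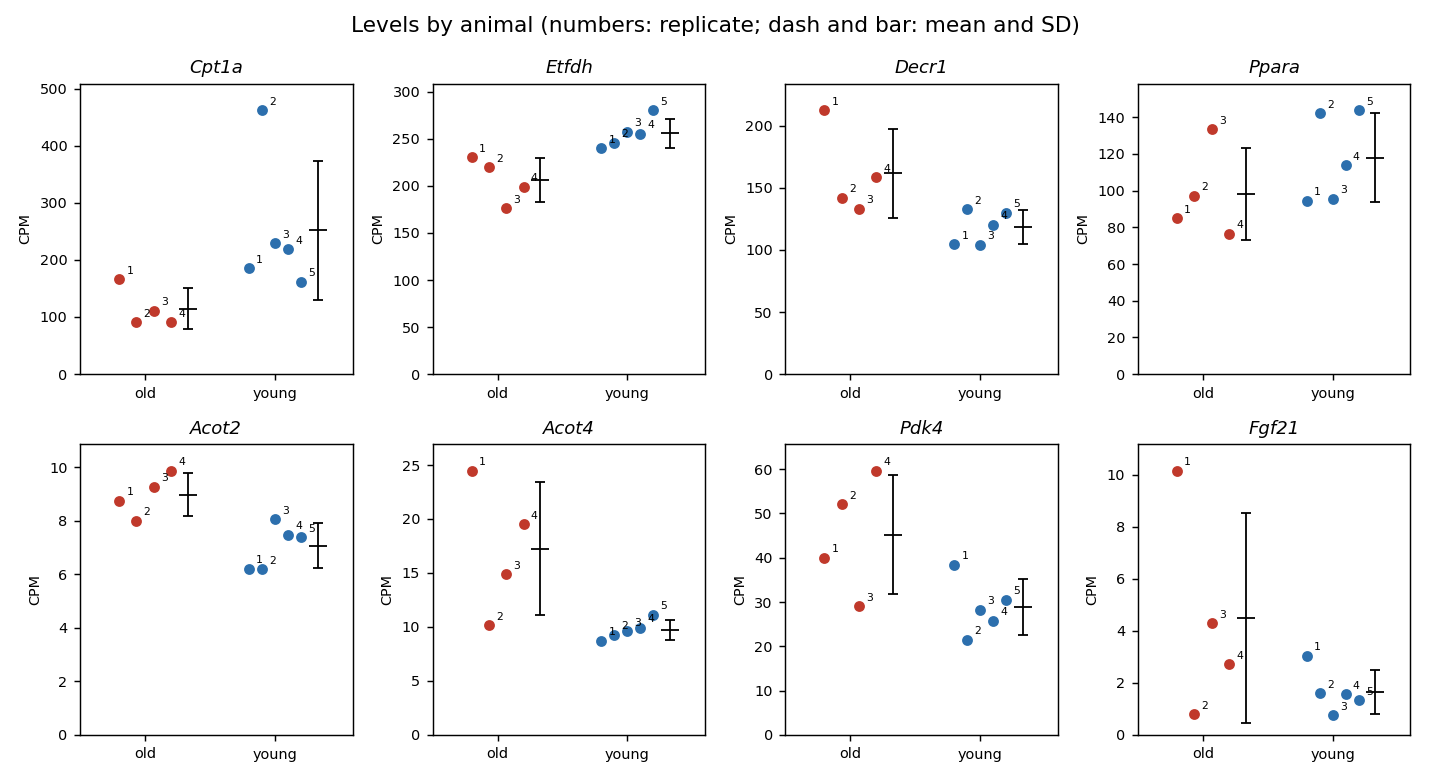
CPM in each animal for the 7 members at an unadjusted p under 0.05 and for Ppara, with old animals in red and young animals in blue, numbered by replicate; the dash and bar give mean and SD. The groups are apart for Etfdh and, by less than 1 CPM, for Decr1, and they overlap in the other 6 panels.

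The peroxisomal genes had log2 fold changes close to 0. Ehhadh, the bifunctional enzyme that PPARA agonists induce in rodents, lay at 415 ± 85.9 CPM in old and 415 ± 36.4 CPM in young livers. Old 4 was the highest of its group at 534 CPM and old 1 the lowest at 336 CPM, against a range of 357 to 441 CPM in young livers. Hsd17b4, the bifunctional enzyme that also serves branched chains, lay at 452 ± 53.4 CPM in old and 502 ± 31.5 CPM in young livers. The thiolase genes Acaa1a and Acaa1b are close copies, so that reads could be split between them, and lay at 174 ± 16.5 against 169 ± 10.8 CPM and at 40.7 ± 12.1 against 42.3 ± 13.6 CPM in old against young livers. The adjusted p by edgeR was 0.999, 0.529, 0.866 and 0.931 for these 4 genes.

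Bdh1 encodes the dehydrogenase that makes beta-hydroxybutyrate from acetoacetate. Its level was 356, 417, 217 and 298 CPM in old 1 to 4, and 353, 394, 389, 384 and 439 CPM in young 1 to 5. Old 3 and old 4 lay under all young livers, and old 1 and old 2 lay within the young range. The log2 fold change was -0.28 ± 0.17 (SE, edgeR adjusted p = 0.448) and was -0.13 without old 3.

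Among the inducible targets, the acyl-CoA thioesterases release free fatty acids from CoA. Their genes lie side by side on rat chromosome 6 in the RefSeq map, in the order Acot2, Acot1, Acot4, Acot3, Acot5 and Acot6 with other genes between some of them. The promoters of the tested members Acot2 and Acot4 are shown because these neighbouring genes both had higher values in old livers. Each sequence runs from 250 bases before to 50 bases after the RefSeq start, build GRCr8, on the plus strand, at chr6:109342590-109342889 for Acot2 and chr6:109399604-109399903 for Acot4. Capitals mark the hexamer AGGTCA or its reverse complement TGACCT, the unit that nuclear receptors such as PPARA recognise.
Acot2: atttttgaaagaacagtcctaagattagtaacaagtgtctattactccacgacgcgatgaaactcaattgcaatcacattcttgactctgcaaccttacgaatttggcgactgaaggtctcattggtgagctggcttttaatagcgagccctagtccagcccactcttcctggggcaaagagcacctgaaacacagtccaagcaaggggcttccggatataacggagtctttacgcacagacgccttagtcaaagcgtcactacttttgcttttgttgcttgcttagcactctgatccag
Acot4: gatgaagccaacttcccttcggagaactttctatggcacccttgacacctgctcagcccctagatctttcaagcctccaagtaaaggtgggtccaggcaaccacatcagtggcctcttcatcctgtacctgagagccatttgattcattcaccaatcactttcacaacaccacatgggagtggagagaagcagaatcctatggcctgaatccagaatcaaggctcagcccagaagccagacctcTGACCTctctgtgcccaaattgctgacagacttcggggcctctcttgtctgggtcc

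The Acot4 window held 1 such hexamer, next to the start, and the Acot2 window held 0. Of the 29 members, 25 matched a promoter by symbol, and 6 of these (24.0%) held the hexamer on either strand, against 16.2% of all 33469 promoters. They were Acot4, Hadhb, Creb3l3, Eci1, Acadvl and Hsd17b4. The repeat with 1 base between its units, AGGTCANAGGTCA, was in 0 of the 25 member windows and in 0.0538% of all promoters, and the looser AGGNCANAGGNCA, which contains it, was in 0 and 0.415%. These counts describe the letters in the windows and say nothing of binding.

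Acot4 had the largest difference among the thioesterase members. Its level was 24.5, 10.2, 14.9 and 19.5 CPM in old 1 to 4, and 8.72, 9.27, 9.62, 9.91 and 11.1 CPM in young 1 to 5. Old 2 lay within the young range and the other old livers lay above it. In edgeR's fit the log2 fold change was 0.83 ± 0.21 (SE, interval 0.36 to 1.31), with an adjusted p of 0.101 by edgeR and 0.0135 by DESeq2. Without old 2 edgeR called it, with 1.01 and an adjusted p of 0.0169.

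Acot2, the mitochondrial form, lay at 8.74, 7.99, 9.27 and 9.86 CPM in old 1 to 4, and 6.21, 6.19, 8.06, 7.48 and 7.38 CPM in young 1 to 5. The groups touched only through old 2 and young 3, and the log2 fold change was 0.35 ± 0.12 (SE, edgeR adjusted p = 0.213). Acot1, the cytosolic form, had at most 2 counts in any library and was not tested. Acot1 and Acot2 are close copies, so the counts of both are uncertain. Acot5 had 6.56, 5.58, 3.87 and 11.1 CPM in old 1 to 4 and 2.41 to 4.34 CPM in young livers, with a log2 fold change of 1.08 (adjusted p = 0.125 by edgeR and 0.0207 by DESeq2). Acot3, named after its values were seen, had 0.72 (edgeR adjusted p = 0.157).

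Pdk4 encodes the kinase that shuts off pyruvate dehydrogenase and so spares glucose when fat is burned. Its level was 40.0, 52.1, 29.0 and 59.6 CPM in old 1 to 4, and 38.5, 21.5, 28.2, 25.8 and 30.5 CPM in young 1 to 5. Old 1, old 2 and old 4 lay above all young livers and old 3 within their range. The log2 fold change was 0.64 ± 0.22 (SE, interval 0.16 to 1.13) and the adjusted p by edgeR was 0.194. Fits without any 1 library gave 0.48 to 0.81, all above 0.

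Fgf21 encodes a hormone that the liver secretes in fasting and metabolic stress. Its level was 10.2, 0.805, 4.29 and 2.73 CPM in old 1 to 4, and 3.05, 1.595, 0.754, 1.55 and 1.33 CPM in young 1 to 5. These came from 14 to 288 counts a library. The old livers spread over nearly the whole young range and beyond it, with old 1 highest and old 2 next to the lowest young liver. That gave a log2 fold change of 1.44 ± 0.61 (SE, interval 0.08 to 2.79), with an adjusted p of 0.288 by edgeR, and it was 0.65 without old 1 (adjusted p = 0.621).

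Angptl4 and Vnn1 had fold changes below 0, with wide intervals. Angptl4, an inhibitor of lipoprotein lipase, lay at 134, 79.7, 147 and 129 CPM in old 1 to 4, and 85.3, 194, 78.2, 178 and 154 CPM in young 1 to 5. Vnn1, a pantetheinase that breaks down a product of CoA, lay at 9.52, 6.67, 8.67 and 2.49 CPM in old 1 to 4, and 3.09, 10.6, 5.00, 12.3 and 11.4 CPM in young 1 to 5. For both genes young 1 and young 3 were the low young livers and young 2, young 4 and young 5 the high ones. The log2 fold changes were -0.17 ± 0.30 and -0.31 ± 0.47 (SE, edgeR adjusted p = 0.803 and 0.774). Fits without 1 library gave Angptl4 values of -0.32 (without young 3) to -0.0135 (without old 2) and Vnn1 values of -0.52 (without young 1) to -0.027 (without old 4).

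The median coefficient of variation over the 28 tested members was 22.9% in old and 10.5% in young livers, with 5 members more variable in young livers (Cpt1a, Acaa1b, Acot2, Vnn1 and Angptl4). It was 19.04% in old and 12.1% in young livers over the 11599 tested genes whose mean reached 1 CPM. The median was 21.8% in old and 8.26% in young livers for the mitochondrial genes, and 32.7% in old and 30.2% in young livers for the inducible targets. Hadha had the smallest value in both groups, at 4.95% in old and 3.74% in young livers, and Fgf21 the largest, at 89.8% in old and 51.1% in young livers. These spreads were not tested.

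Old 3 was the lowest of all 9 libraries for 10 of the 15 mitochondrial members, while it was the lowest for 13.5% of all genes tested. It lay under every young library for 12 of the 15, and for 25.4% of all genes tested. The median log2 difference of old 3 from the mean of the other 3 old libraries was -0.34 over these 15 genes, -0.71 for Bdh1 and 0.01 over all genes tested. Ppara went the other way, being highest of the old livers in old 3. Old 3 is also the library with 242 CPM of monocyte and neutrophil transcripts and 504 CPM over 6 Kupffer cell markers, against 47.2 to 269 CPM in the other old and 89.7 to 247 CPM in young livers, and the part of these cells in the low values was not tested. T and NK cell markers, summed over 10 genes, lay at 47.6 CPM in old 3 and 13.7 to 26.8 CPM in the other old livers. They lay at 6.84 to 10.8 CPM in young livers. Of the 47.6 CPM in old 3, Cd3e gave 16.5 CPM, against 0.521 to 1.62 CPM in the other old livers. Cd3e, Cd3g, Nkg7, Gzmm and Prf1 were highest in old 3, but Cd3d, Cd8a, Cd2 and Ccl5 in old 1 and Klrd1 in old 2. Erythroid transcripts were also highest in old 3. Old 1 was the highest of the old libraries for 10 of the 15 mitochondrial members, and for 31.3% of all genes tested. It had the lowest Kupffer cell sum of all 9 libraries, at 47.2 CPM. Endothelial markers, summed over 7 genes, were also lowest in old 1, at 143 CPM against 192 to 279 CPM elsewhere. Of these, Clec4g was instead highest in old 1. Egfl7 was lowest in old 3, and Vwf was lowest in young 1 at 11.2 CPM, with 19.5 CPM in old 1. The T and NK cell sum of old 1 was not the lowest. The part of these cells in the values of old 1 was not tested.

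**Figure D3:**
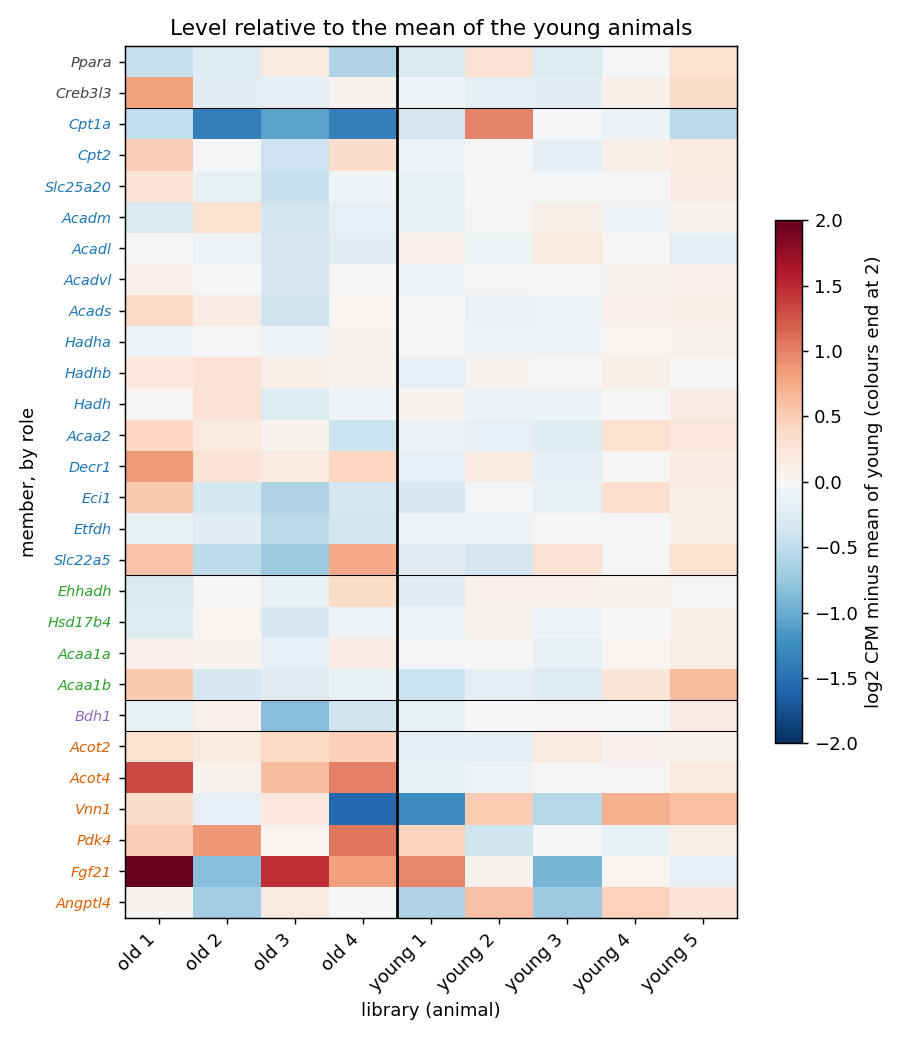
Log2 CPM of the 28 tested members (rows, by role) in each library (columns, old to the left), minus the mean of the young animals; colours end at 2 either way. Old 3 is blue for most mitochondrial genes and Bdh1. By the median, the inducible targets at the bottom differ more between animals of a group than the mitochondrial genes do. Acot2 varies less than the mitochondrial genes Cpt1a, Eci1 and Slc22a5.

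Beyond the members, 103 further genes of these pathways were listed, of which 101 were in the table and 96 tested. By edgeR 1 was called higher, Rxrg, and 0 lower, with 12 higher and 6 lower at an unadjusted p under 0.05, which is 18.8% of those tested against 15.9% of all genes. Their median log2 fold change was 0.02. The groups did not overlap for 3 of the 96 (Rxrg, Ppargc1a and Retsat), which is 3.1%, against 6.53% of all genes. Of the regulators 26 were tested, with 3 higher and 4 lower at an unadjusted p under 0.05, which is 26.9%. Of the inducible genes 26 were tested, with 4 higher and 1 lower, which is 19.2%. Over all genes 8.94% were higher and 6.96% lower at that threshold. The list was drawn up with earlier results of these data known.

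Rxrg encodes a retinoid X receptor, a family whose members pair with PPARA on DNA. Its level was 23.2, 24.4, 15.8 and 25.1 CPM in old 1 to 4, and 12.4, 8.09, 12.5, 10.98 and 13.5 CPM in young 1 to 5. Every old liver lay above every young one. The log2 fold change was 0.95 ± 0.17 (SE), a 1.93-fold higher level, with an adjusted p of 0.0404 by edgeR. The call was lost in 8 of the 9 fits that left out a library, at adjusted p-values of 0.0578 to 0.108, and was kept without old 3 (adjusted p = 0.0183). Rxra, the form known to be the main one in liver, lay at 116 ± 33.4 CPM in old and 131 ± 17.8 CPM in young livers (edgeR adjusted p = 0.670).

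Ppargc1a encodes a coactivator of PPARA that rises in fasting. Its level was 1.83, 2.59, 2.44 and 3.53 CPM in old 1 to 4, and 1.26, 1.56, 1.32, 0.923 and 0.923 CPM in young 1 to 5, without overlap. Its fitted log2 fold change was 1.11 ± 0.26 (SE), with an adjusted p of 0.0729 by edgeR and 0.00593 by DESeq2. Retsat, which encodes a retinol saturase of the liver, also showed no overlap, at 454 to 679 CPM in old and 308 to 442 CPM in young livers. Its log2 fold change was 0.64 ± 0.15 (SE), with the same adjusted p of 0.0729 by edgeR and 0.00173 by DESeq2.

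Of the other mitochondrial genes, 18 were tested and 0 called by edgeR, with 2 higher and 0 lower at an unadjusted p under 0.05. That is 11.1% of those tested, against 15.9% of all genes. Their median log2 fold change was 0.02, and DESeq2 called Crat. Crat, which moves acetyl groups to carnitine, lay at 51.2 ± 11.03 CPM in old and 34.3 ± 6.82 CPM in young livers (log2 0.58, adjusted p = 0.145 by edgeR and 0.0488 by DESeq2). Pccb, a subunit of propionyl-CoA carboxylase, which handles the end of odd chains, lay at 193 ± 29.6 CPM in old and 154 ± 11.7 CPM in young livers (log2 0.32, adjusted p = 0.236 by edgeR). Echs1, the short chain enoyl-CoA hydratase of the cycle, had only 1 to 4 counts in each library and was not tested.

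Of 18 other peroxisomal genes 0 were called by edgeR, with 2 higher and 0 lower at an unadjusted p under 0.05. That is 11.1% of those tested, against 15.9% of all genes. Crot, the peroxisomal carnitine octanoyltransferase, reached 474 CPM in old 3, with 132 to 206 CPM in the remaining old livers, against 77.5 to 154 CPM in young livers. Its log2 fold change was 1.03 with all libraries and 0.53 without old 3 (adjusted p = 0.194 and 0.268 by edgeR), and DESeq2 called it with all libraries (adjusted p = 0.0447). Abcd2, a peroxisomal importer of very long chains, had 0.141 to 2.00 CPM in old and 0.0971 to 0.660 CPM in young livers, with 2 to 4 counts in old 1, young 4 and young 5 and at most 50 in any library (log2 2.00, edgeR adjusted p = 0.201).

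Of the other ketone genes 8 were tested, 0 called by edgeR and 1 in each direction at an unadjusted p under 0.05. That is 25% of those tested, against 15.9% of all genes. Bdh2, a cytosolic relative of Bdh1, lay at 12.9 ± 5.74 CPM in old and 6.57 ± 1.90 CPM in young livers (log2 0.97, adjusted p = 0.195 by edgeR).

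Oxct1 encodes the enzyme with which tissues outside the liver use ketone bodies. Its level was 1.83, 2.18, 2.68 and 1.36 CPM in old 1 to 4, and 1.98, 4.93, 5.80, 4.91 and 5.59 CPM in young 1 to 5. Between the groups the log2 fold change was -1.20 (adjusted p = 0.112 by edgeR and 0.0132 by DESeq2), and it was 0.03 with young 1 as the only young library. Without young 1 edgeR called it lower, with -1.40 and an adjusted p of 0.0237. The high values were those of young 2 to 5. These libraries had 127 to 158 CPM of heart muscle transcripts, against 18.9 CPM in young 1. Among the heart markers, Actc1 lay at 40.3 to 52.0 CPM in young 2 to 5, with 0 counts in young 1. Ryr2 was instead highest in young 1, and Ldb3 in old 4. Actn2, Myom1 and Hrc in young 1 lay within the range of young 2 to 5. The part of the heart muscle transcripts in the difference was not tested.

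**Figure D4:**
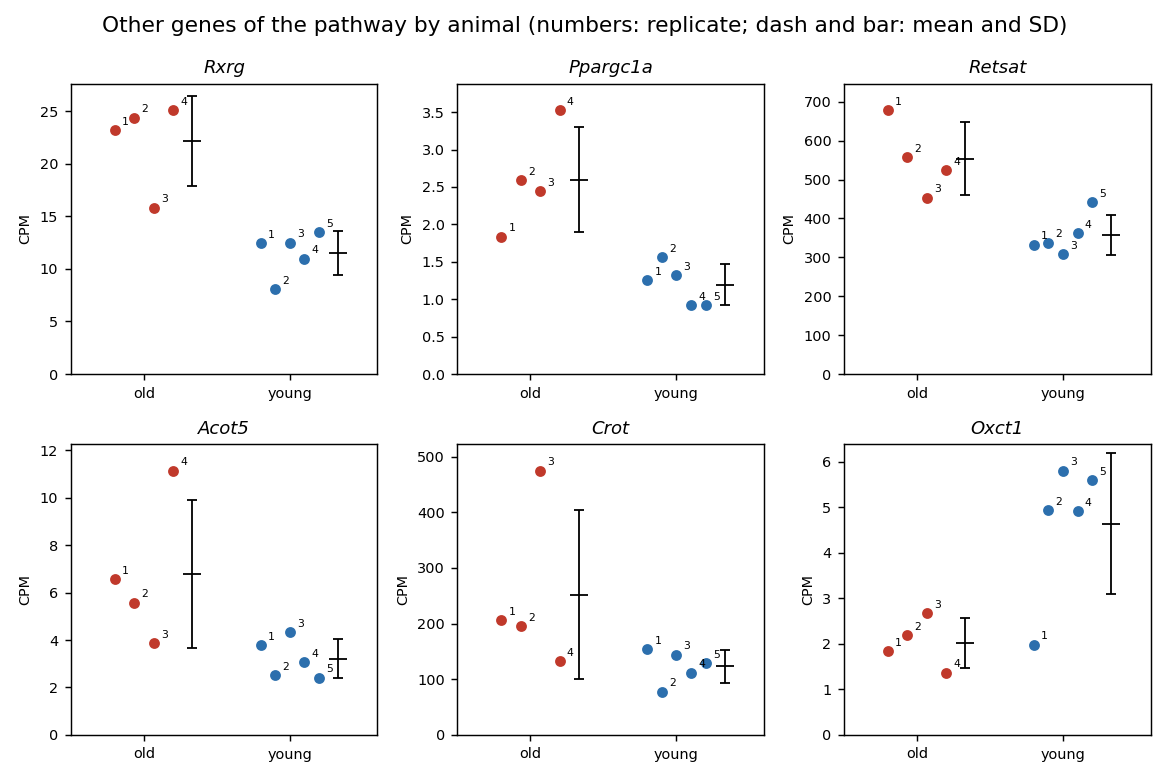
CPM in each animal for 6 other genes of the pathway, with old animals in red and young animals in blue, numbered by replicate; the dash and bar give mean and SD. The groups are apart for Rxrg, Ppargc1a and Retsat, old 3 is the highest for Crot, and young 1 lies among the old animals for Oxct1.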

How the data were processed

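The deposited values are raw whole-number counts of reads for each gene, not normalized, with 1 column per animal. Per the submitters' processing notes the aligner was BWA. Its version, the annotation and build, the counting tool and the handling of reads that match several genes are not given in the sources used here. The library kit named in the labels' protocols, Illumina TruSeq RNA v2, does not mark strand, so overlapping genes on opposite strands cannot be told apart. The design text counts replicates as animals.

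Symbols were spelled after RefSeq. From 18071 genes with a count, edgeR's filterByExpr (minimum count 10, minimum total 15) kept 12778. Libraries were scaled with TMM factors, and a quasi-likelihood model over all 9 libraries was tested two-sided, with Benjamini-Hochberg adjustment over all genes tested. Intervals come from the fold change, its SE and the model's degrees of freedom. A gene at 0 counts lay under 3 counts, 0.106 to 0.172 CPM by library; this floor covers counting error only. The scripts were tested on simulated data. Models were run with edgeR 4.0.16, DESeq2 1.42.0 and limma 3.58.1 under R 4.3.3, and figures were drawn with matplotlib 3.10.9 under Python 3.11.15.

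The members and lists were chosen with earlier results of these data known. Named genes are all members, any called gene of the other lists, the 2 smallest p of each of those lists, and Ppargc1a and Rxra. Some genes of these lists are not reported here. Alternatives were other scalings, filters and tests, a replicate block, old 1 halved, and fits without libraries.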

Additional observations from a re-analysis of the deposited data

Results flagged for a closer look

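In each named gene the highest and lowest animal of a group was compared with the rest of that group, over 78 sets of values. A library stood apart in 4 of them, where chance gives about 5%. Cpt1a reached 462 CPM in young 2, against 161 to 229 CPM in the other young livers. Eci1 reached 119 CPM in old 1, against 54.9 to 65.3 CPM in the other old livers. Pccb lay at 149 CPM in old 3, against 203 to 212 CPM in the other old livers. Oxct1 lay at 1.98 CPM in young 1, against 4.91 to 5.80 CPM in the other young livers.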

How the results depend on the processing

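Over 21 alternatives the 39 named genes tested gave 817 values, of which 765 kept their direction and 52 reversed. Over all genes 84 were called higher and 44 lower; totals-only scaling called 72 higher and 208 lower, DESeq2 386 and 269, limma-voom 41 and 27, the fit without old 3 and old 4 72 higher and 26 lower, and young 1 alone against the old libraries 0 and 0, where young 1 was assumed to vary like the old animals. Leaving out 1 library gave 20 to 115 higher and 10 to 86 lower. Members called were 1 lower with totals only (Etfdh), 1 higher and 1 lower with DESeq2, and 0 to 1 higher with 1 library left out (Acot4, without old 2). Other alternatives called 0 members. At an unadjusted p under 0.05, members higher and lower were 1 and 6 with totals only, against 3.81% and 20.9% of all genes. Without old 3 and old 4 they were 5 and 0, against 11.5% and 9.17%. They were 4 and 1 with the block, and 4 to 5 and 2 to 4 with 1 library left out. For the block and these fits the shares over all genes were not counted, so the member counts cannot be read alone. The cause of these shifts was not tested.

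The replicate block called 27 genes higher and 16 lower and 0 members. Same-numbered old and young libraries had correlations of -0.10, 0.10, 0.31 and -0.17, so the numbers were not taken as pairs. Under the block Ehhadh had -0.029 and Acaa1b 0.11.

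The log2 fold changes that reversed were small in most cases. With totals only, which moved the median of all genes to -0.17, they were -0.042 for Cpt2, -0.11 for Acads, -0.0053 for Hadhb, -0.17 for Hadh, -0.11 for Acaa2, -0.0197 for Slc22a5, -0.16 for Ehhadh, -0.13 for Acaa1a and -0.034 for Creb3l3. Hadh had -0.0016 with upper-quartile scaling, -0.0076 without a filter and -0.0054 with limma-voom, and Ehhadh -0.0074, -0.0082 and -0.017. Without old 3 and old 4 Slc25a20 had 0.0601, Acadm 0.031, Acadvl 0.034, Eci1 0.13, Ehhadh -0.15 and Acaa1b 0.10. With young 1 alone Slc25a20 had 0.063, Acadm 0.0297, Acadvl 0.033, Hadh -0.038, Eci1 0.19, Acaa1b 0.44, Ppara 0.0595, Vnn1 1.16, Angptl4 0.53 and Oxct1 0.0297. Leaving out 1 library gave ranges of -0.0071 to 0.28 for Cpt2, -0.22 to 0.014 for Slc25a20, -0.11 to 0.024 for Acadvl, -0.049 to 0.20 for Acads, -0.10 to 0.087 for Hadh, -0.053 to 0.22 for Acaa2, -0.12 to 0.35 for Slc22a5, -0.15 to 0.088 for Ehhadh, -0.0055 to 0.10 for Acaa1a, -0.28 to 0.14 for Acaa1b and -0.14 to 0.27 for Creb3l3. Rxrg lost its call with totals only (adjusted p = 0.0546), limma-voom (0.0546) and the block (0.1504). Old 3 stayed the lowest library for 9 of 15 mitochondrial members with totals only and 10 under the other scalings, a check added after seeing the data.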

Other observations

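Outside the naming rule and apart from Acot3, 7 further pathway genes had an unadjusted p under 0.05, and all are given here after their values were seen. Pparg, the adipogenic relative of Ppara, lay at 3.53, 4.60, 2.49 and 1.603 CPM in old 1 to 4 and at 4.08 to 8.50 CPM in young livers (log2 -1.10, edgeR adjusted p = 0.134). Me1, the cytosolic malic enzyme that supplies NADPH for fat synthesis, lay at 18.4 to 33.02 CPM in old and 26.0 to 76.99 CPM in young livers (log2 -0.99, edgeR adjusted p = 0.147). Ucp2, a mitochondrial carrier also high in macrophages, reached 45.8 CPM in old 3 and 12.5 to 15.2 CPM in the other old livers, against 8.15 to 13.2 CPM in young livers (log2 1.14, edgeR adjusted p = 0.189). Ppard, another relative of Ppara, lay at 21.6 to 42.2 CPM in old and 8.53 to 27.8 CPM in young livers (log2 0.80, edgeR adjusted p = 0.259). Ppargc1b, a relative of Ppargc1a, lay at 0.494 to 2.04 CPM in old and 1.33 to 2.91 CPM in young livers (log2 -0.93, edgeR adjusted p = 0.284). Sirt1, a deacetylase, lay at 9.82 to 14.2 CPM in old and 13.2 to 17.02 CPM in young livers (log2 -0.31, edgeR adjusted p = 0.268). Pdp2, a pyruvate dehydrogenase phosphatase, lay at 8.39 to 19.04 CPM in old and 13.4 to 31.4 CPM in young livers (log2 -0.71, edgeR adjusted p = 0.256).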
